A study of Mus musculus with 8 samples.

Results

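The interleukins outside the IL-1 family and their receptors were examined in hepatic macrophages of mice given recombinant CPS1 (rCPS1) or recombinant transferrin (rTF) before an overdose of acetaminophen. The set held 52 genes, 24 ligands and 28 receptors, of the 22180 genes measured by an array row with exactly 1 gene symbol. Members were all genes whose symbol is Il followed by a digit, leaving out the IL-1 family (including Il18, Il33 and Il36 names) and also Il6, Il10, Il12a, Il12b, Il23a and Il4ra. The rCPS1 group was 4 arrays from mice that received 50 µg of the urea cycle enzyme carbamoyl phosphate synthetase 1, a mitochondrial protein of hepatocytes, and the rTF group was 4 arrays from mice that received 25 µg of transferrin, the iron carrier of plasma. Both proteins went into the tail vein 12 h before acetaminophen (350 mg/kg, intraperitoneal), a drug that injures hepatocytes when overdosed, and all mice were FVB/N males aged 8 weeks. The amount of protein differed between the groups along with its identity, and there were no arrays without acetaminophen. All titles carry the same mouse label with a replicate number, so separate animals are not documented, and p-values describe only the spread between these arrays, which may be technical.

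Interleukins are secreted proteins through which leukocytes, epithelium and stroma instruct each other. Most of the members here signal through receptor pairs that activate JAK kinases and STAT transcription factors. A private chain binds the cytokine and a shared chain completes the receptor: the common gamma chain for IL-2, IL-4, IL-7, IL-9, IL-15 and IL-21, the common beta chain for IL-3 and IL-5, gp130 for IL-6, IL-11 and IL-27, and IL-10RB for IL-10 and IL-22. The IL-17 family uses a separate group of receptors that feeds into NF-kappaB. Liver macrophages respond to IL-6, IL-10 and the IL-4 and IL-13 pair, whereas IL-7, IL-2 and IL-21 receptors are best known on T, NK and innate lymphoid cells. In whole-preparation RNA, fewer cells of a type and less RNA per cell cannot be told apart.

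No member passed the test across all genes. With limma and Benjamini-Hochberg adjustment, 0 of 52 members had an adjusted p under 0.05 (0% of all genes did), and the smallest adjusted p of a member was 0.98. At an unadjusted p under 0.05 there were 6 members (11.5%), against 4.67% of all genes: Il17c and Il17f were higher with rCPS1, and Il21, Il9, Il7r and Il20ra were lower. The shares by direction were 1.88% of all genes higher and 2.79% lower. The groups did not overlap for 3 members, Il21, Il7r and Il10ra, all lower with rCPS1 (5.77% of members, against 2.92% of all genes). Among all genes 0.947% were higher and 1.97% lower without overlap. The count was 3 in place of 6 without rTF replicate 2, where Il17c, Il21 and Il9 were left, and also 3 without rCPS1 replicate 4, where Il17c, Il17f and Il21 were left. These 3 are 5.77% of the members, near the share of all genes in the same fits, 4.14% without rTF replicate 2 and 4.31% without rCPS1 replicate 4.

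Il21 and Il7r belong to the same cytokine system, that of the common gamma chain, and both had groups apart. Their upstream sequences are shown because both lay lower on every rCPS1 array than on any rTF array. Il10ra also did so, but no upstream sequence was available for it. The sequences come from RefSeq (GRCm38.p6) and run 5′ to 3′ on the strand of the gene, with capitals at matches to GGAAAA (the core bound by NFAT factors) and TTCNNNGAA (the STAT half-sites), searched on both strands. Il21 is shown for chr3:37232637-37232886 (minus strand) and Il7r for chr15:9529942-9530126 (minus strand), both outside the annotated gene.
Il21: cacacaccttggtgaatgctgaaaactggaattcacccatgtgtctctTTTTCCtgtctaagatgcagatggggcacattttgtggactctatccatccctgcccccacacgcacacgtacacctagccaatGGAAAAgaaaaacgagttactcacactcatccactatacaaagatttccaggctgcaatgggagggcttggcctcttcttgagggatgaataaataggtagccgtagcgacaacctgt
Il7r: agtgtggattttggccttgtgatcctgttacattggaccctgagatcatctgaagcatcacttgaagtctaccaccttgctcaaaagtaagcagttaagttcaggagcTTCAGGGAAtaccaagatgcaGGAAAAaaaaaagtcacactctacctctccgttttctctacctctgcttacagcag
The Il21 stretch held 2 NFAT-core matches, at 202 and 118 bases before the start. The Il7r stretch held 1 NFAT-core match, at 121 bases before the start, and 1 STAT match at 142. The start used for Il7r lies inside the annotated gene, so only 185 of the 250 bases before it are printed. The Il7r distances therefore do not count from the end of the printed stretch, whereas those of Il21 do. A match to GGAAGT, the core of the ETS family, lay at 49 bases before the Il7r start, in a stretch inside the annotated gene that is not printed. Within the 250 bases before the start, GGAAAA occurred in 22.9% of all 27025 genes with such a sequence and in 13 of the 38 members that matched by symbol (34.2%). The same window held TTCNNNGAA in 8.13% of all genes and in 4 of 38 members (10.5%), and GGAAGT in 22.2% and in 8 of 38 (21.1%). These are letters in a window, and no factor was measured.

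A single array stood apart. It is rTF replicate 2, whose score on the first principal component of all genes was 42.6, while the remaining scores ran from -23.1 to 7.04 (22.9% of the variance). Array medians were 3.55 to 3.68 on the log2 scale, and pairs of arrays correlated at 0.967 to 0.983 across rows, which are not independent. The defining genes of macrophages were measured at 9.03 or more in the mean of the 8 arrays: the 10 markers (Adgre1, Clec4f, Cd5l, Marco, Timd4, Vsig4, Csf1r, Cd68, C1qa and C1qb) averaged 9.59 to 10.30 on rCPS1 arrays and 9.52 to 10.10 on rTF arrays. Markers of other cells were measured too. The 6 endothelial markers averaged 11.49 to 11.60 on rCPS1 arrays and 11.46 to 11.57 on rTF arrays. The 6 hepatocyte markers averaged 7.71 to 8.51 on rCPS1 arrays and 8.04 to 8.82 on rTF arrays. The 9 measured T cell markers averaged 5.54 to 6.07 on rCPS1 arrays, against 7.13 on rTF replicate 2 and 5.74 to 6.26 on the other rTF arrays. The 9 NK cell markers averaged 5.25 to 5.99 on rCPS1 arrays, against 6.62 on rTF replicate 2 and 5.62 to 5.66 on the other rTF arrays. The mean of the 5 dendritic cell markers was also highest on that array. It was 6.10 to 6.17 on rCPS1 arrays, against 6.74 on rTF replicate 2 and 6.004 to 6.45 on the other rTF arrays. Of these genes only Siglech and Ccr7 were themselves highest there, and Flt3, Xcr1 and Zbtb46 peaked on other arrays. The 8 markers of eosinophils, basophils and mast cells averaged 3.84 to 3.98 on rCPS1 arrays, against 4.50 on rTF replicate 2 and 3.74 to 3.91 on the other rTF arrays. This list includes Kit, with a row mean of 9.84, and only 4 of its 8 rows exceeded 3.60, the median of the row means. Relative to the mean of the other rTF arrays, rTF replicate 2 stood at 2.46 for Cpa3 and at -0.55 for Prg2. Monocyte markers (5 measured) averaged 7.78 to 7.99 with rCPS1 and 8.46 to 8.84 with rTF, and neutrophil markers (8) 5.06 to 6.09 with rCPS1 and 6.42 to 7.22 with rTF. The list means did not overlap between the groups for these 2 lists, all of whose members were lower with rCPS1. Gene by gene, the groups did not overlap for 3 of 5 monocyte and 5 of 8 neutrophil markers, against 2.92% of all genes. List means were above 0 on all arrays, but so are dim rows, so this does not show that a cell type was present. The part of these cells in the members' values was not tested. No single-symbol row was present for Il2rg, Il11ra1, Il11ra2, Il28ra or Il4i1, and these are not analysed here.

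**Figure D1:**
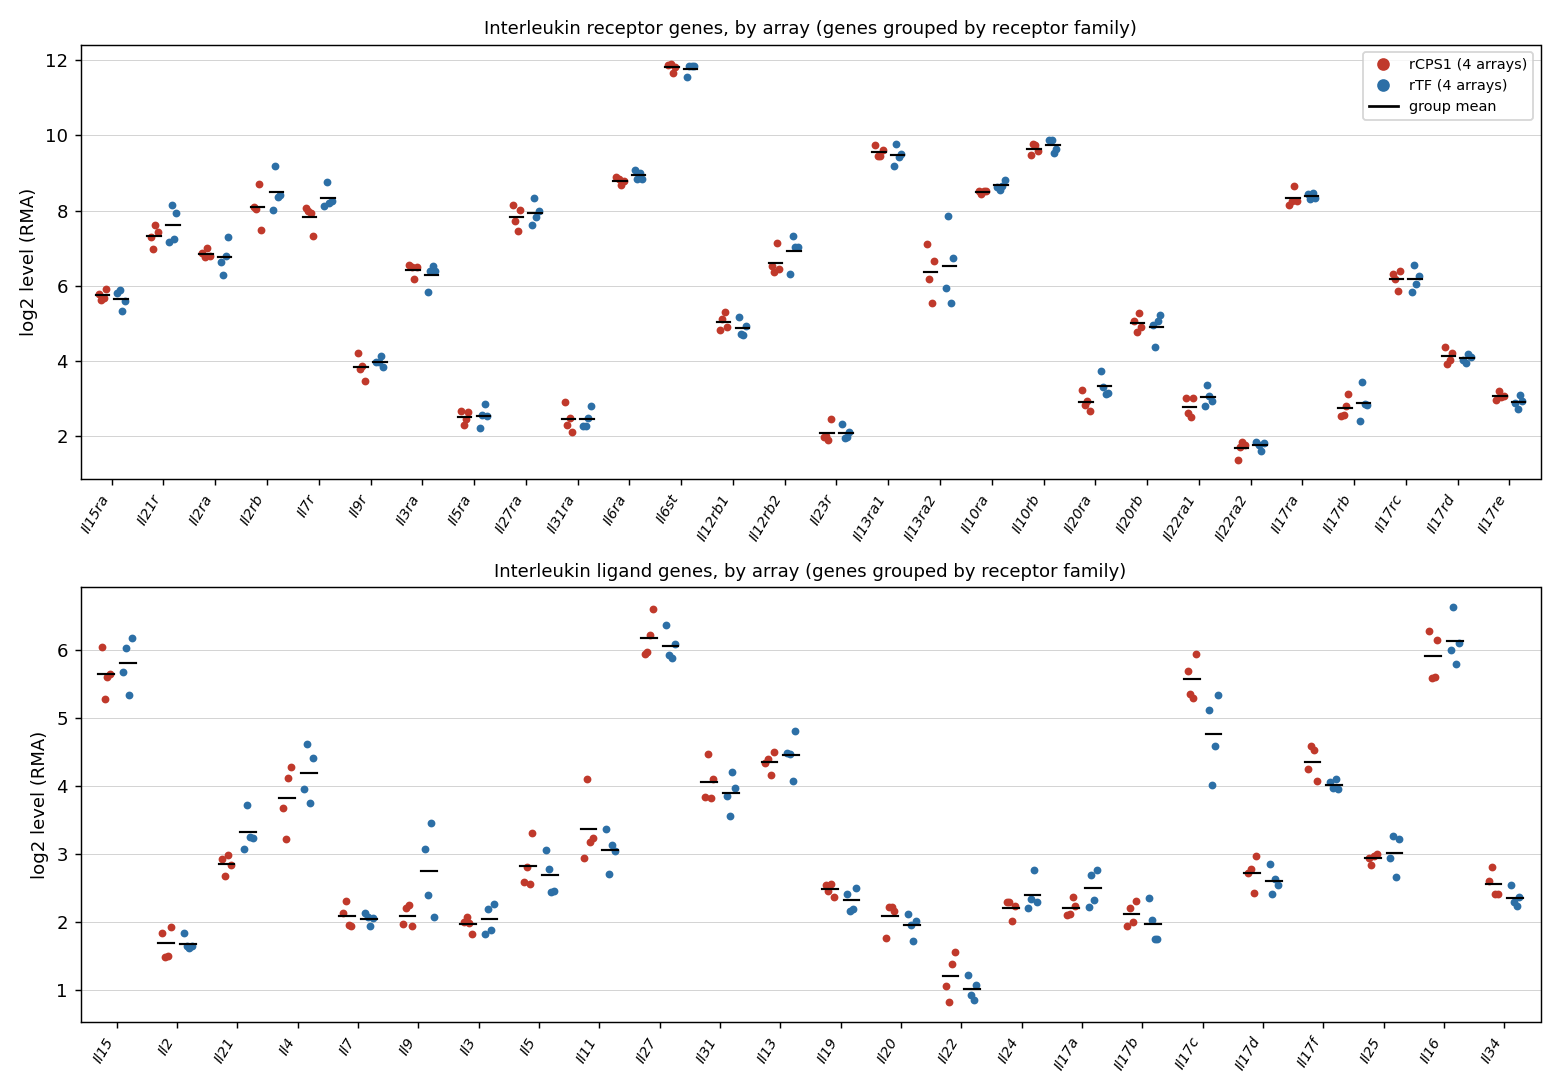
RMA log2 level (vertical axis) of each of 28 receptor genes (top) and 24 ligand genes (bottom) on each array, rCPS1 arrays in red left of rTF arrays in blue, with black bars at group means; genes are grouped by receptor family. For most genes the points of the groups overlap, and those of Il21, Il7r and Il10ra do not; levels of different genes are not comparable, since each row has its own probes.

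Ligands were mostly dim. Taking 3.60, the median of the row means, as a mark, 8 of 24 ligands and 20 of 28 receptors exceeded it. A dim row limits what can be seen, because background takes up much of its signal. The median log2 difference (rCPS1 minus rTF) was 0.076 over the ligands, with 14 higher and 10 lower, and -0.069 over the receptors, with 10 higher and 18 lower. Over all genes it was -0.018, with 10123 higher and 12057 lower. Ligand differences ran from -0.66 to 0.81 and receptor differences from -0.49 to 0.16. Without rCPS1 replicate 4 the ligand median was -0.023, on the other side of 0. The confidence interval of the difference lay wholly within 0.5 either way on the log2 scale (1.41-fold) for 16 of 28 receptors and 10 of 24 ligands.

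**Figure D2:**
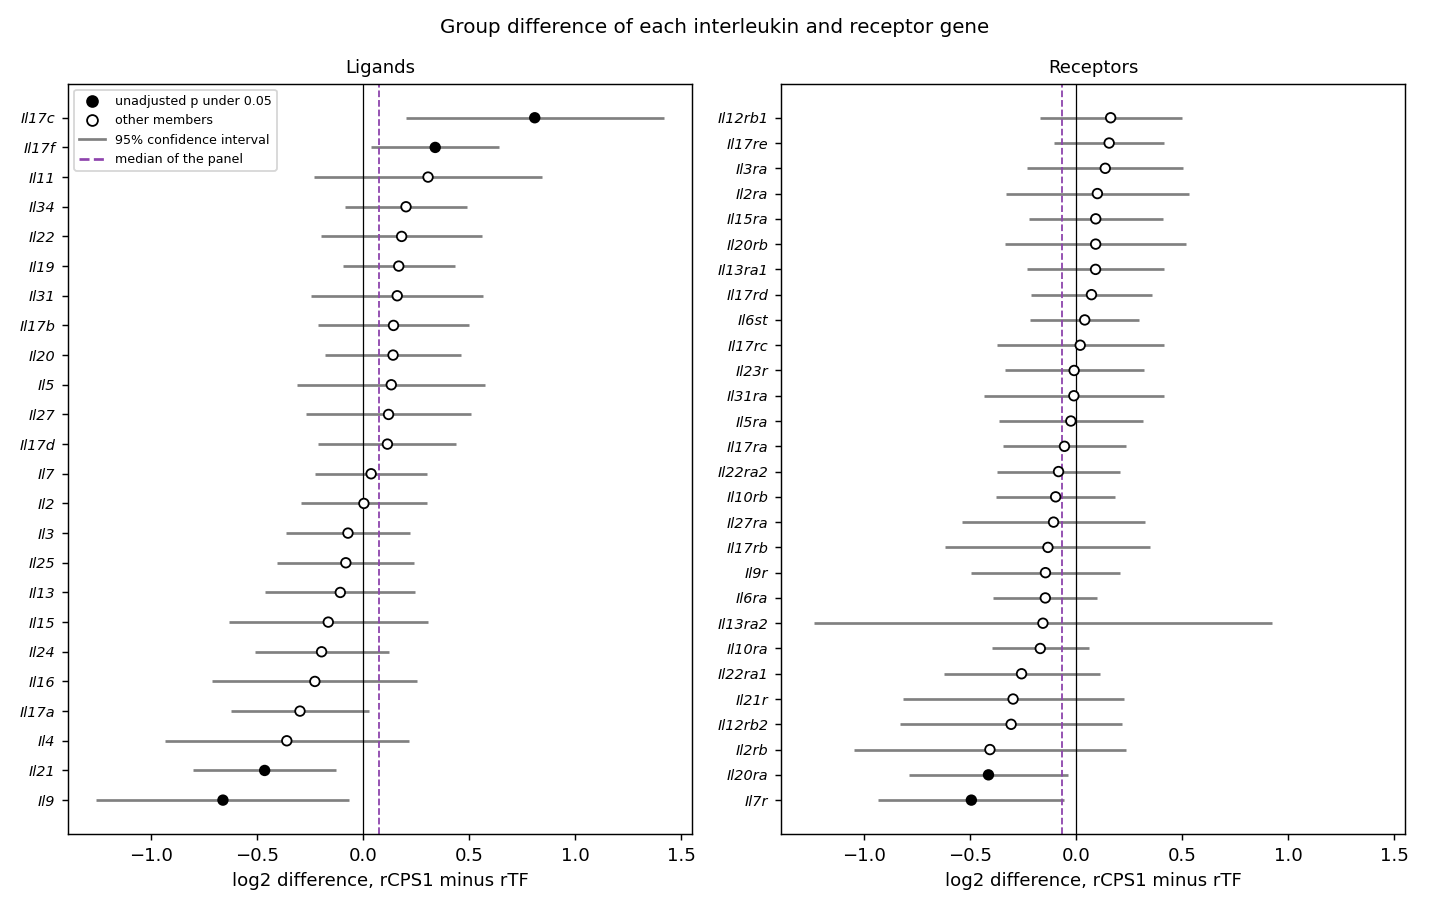
Log2 difference, rCPS1 minus rTF (horizontal axis), of each ligand (left) and receptor (right) with its 95% confidence interval from limma; filled points mark an unadjusted p under 0.05 and dashed lines the panel medians of 0.076 and -0.069. The interval excludes 0 for 6 of 52 genes, and that of Il13ra2 is the widest.

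The member of largest difference was Il17c, a cytokine of epithelial cells that acts through IL-17RA and IL-17RE. On rCPS1 arrays Il17c (probe set 17506392) stood at log2 levels of 5.69, 5.36, 5.30 and 5.94, and on rTF arrays at 5.11, 4.01, 4.58 and 5.34. The rCPS1 arrays lay between 5.30 and 5.94, and of the rTF arrays only replicate 4, at 5.34, reached into that range. The means, 5.57 ± 0.30 with rCPS1 and 4.76 ± 0.59 with rTF (SD, n = 4 each), differed by 0.81 ± 0.27 (SE) with a 95% confidence interval of 0.20 to 1.42. By limma the unadjusted p was 0.0144 and the adjusted p 0.98. The lowest array was rTF replicate 2, and without it the difference was 0.56 ± 0.22 (unadjusted p = 0.0317 by limma). With 1 array left out at a time the difference ran from 0.56 to 1.001 and the unadjusted p stayed under 0.05, the highest being 0.0429.

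Il17f, a product of T helper 17 and gamma delta T cells, was also higher with rCPS1. For Il17f (probe set 17221627) log2 levels were 4.24, 4.59, 4.53 and 4.07 with rCPS1 and 4.06, 3.97, 4.10 and 3.95 with rTF. The rTF arrays were tightly grouped, and rCPS1 replicate 4 lay among them. Averages of 4.36 ± 0.25 with rCPS1 and 4.02 ± 0.069 with rTF (SD, n = 4 each) gave a difference of 0.34 ± 0.14 (SE) with a 95% confidence interval of 0.038 to 0.64. By limma the unadjusted p was 0.0312 and the adjusted p 0.98. The p was above 0.05 without rCPS1 replicate 2 (0.0924) or 3 (0.084), without rTF replicate 2 (0.0601) or 4 (0.0722), and with quantile normalization (0.0635). Its neighbour and close relative Il17a pointed the other way at -0.30 ± 0.15, with an interval of -0.63 to 0.029, on a row below the median level (unadjusted p = 0.0696 by limma). Its p was 0.0232 without rTF replicate 1 and 0.0271 with array weights. The remaining IL-17 ligands, Il17b, Il17d and Il25 (IL-17E), were dim and had differences between -0.082 and 0.14. Of the 5 IL-17 receptor genes none had an unadjusted p under 0.05. The shared chain IL-17RA, through which IL-17A, IL-17C and IL-17F all signal, had overlapping groups. Il17ra (probe set 17462351) measured 8.16, 8.25, 8.66 and 8.26 on the rCPS1 arrays, against 8.44, 8.31, 8.46 and 8.35 on the rTF arrays (log2 levels, replicates 1 to 4). The highest array was rCPS1 replicate 3 and the lowest rCPS1 replicate 1. Group means were 8.33 ± 0.22 with rCPS1 and 8.39 ± 0.071 with rTF (SD, n = 4 each), a difference of -0.055 ± 0.13 (SE) with a 95% confidence interval of -0.34 to 0.23. Unadjusted, p was 0.682 by limma. Il17re, the partner chain for IL-17C, differed by 0.16 ± 0.12, and Il17rc, the partner chain for IL-17A and IL-17F, by 0.02 ± 0.18. Il17rb, the IL-25 receptor, differed by -0.13 ± 0.22 and Il17rd, a regulator of FGF signalling as well, by 0.073 ± 0.13.

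Among ligands of the common gamma chain, 4 of 6 were lower with rCPS1 and 2 higher, with a median difference of -0.26. Without rTF replicate 2 that median was -0.15, and only 2 of the 6 rows exceeded the median row level. Il21, made by follicular helper and NKT cells, had groups apart. On rCPS1 arrays Il21 (probe set 17404888) stood at log2 levels of 2.92, 2.68, 2.98 and 2.83, and on rTF arrays at 3.07, 3.72, 3.25 and 3.23. Every rCPS1 array lay below every rTF array, the nearest pair being 2.98 and 3.07. The means, 2.85 ± 0.13 with rCPS1 and 3.32 ± 0.28 with rTF (SD, n = 4 each), differed by -0.46 ± 0.15 (SE) with a 95% confidence interval of -0.80 to -0.13. By limma the unadjusted p was 0.0117 and the adjusted p 0.98. All of these values but that of rTF replicate 2 are under the median row level of 3.60. Without rTF replicate 2, the highest array, the difference was -0.33 ± 0.12 (unadjusted p = 0.0228 by limma).

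Il9, a cytokine of T helper cells and type 2 innate lymphoid cells that acts on mast cells, was also lower with rCPS1. For Il9 (probe set 17293013) log2 levels were 1.97, 2.21, 2.25 and 1.93 with rCPS1 and 3.07, 2.40, 3.46 and 2.08 with rTF. The rCPS1 arrays were close together, while the rTF arrays split, with replicates 1 and 3 high and replicate 4 among the rCPS1 values. Averages of 2.09 ± 0.16 with rCPS1 and 2.75 ± 0.63 with rTF (SD, n = 4 each) gave a difference of -0.66 ± 0.27 (SE) with a 95% confidence interval of -1.26 to -0.065. By limma the unadjusted p was 0.0331 and the adjusted p 0.98. This row is dim as well. Without rTF replicate 3 the difference was -0.43 (unadjusted p = 0.0884 by limma), and the p was also above 0.05 without rCPS1 replicate 1 (0.0716), rCPS1 replicate 4 (0.0734) or rTF replicate 1 (0.0867), and with array weights (0.091). Il15, which keeps NK and memory CD8 T cells alive and is presented on the IL-15RA chain by myeloid cells, was measured above the median row level. Il15 (probe set 17510856) measured 6.04, 5.28, 5.60 and 5.64 on the rCPS1 arrays, against 5.68, 6.02, 5.34 and 6.18 on the rTF arrays (log2 levels, replicates 1 to 4). The groups overlapped over nearly the whole range. Group means were 5.64 ± 0.31 with rCPS1 and 5.81 ± 0.38 with rTF (SD, n = 4 each), a difference of -0.16 ± 0.21 (SE) with a 95% confidence interval of -0.64 to 0.31. This gave an unadjusted p of 0.453 in limma. With 1 array left out its difference ran from -0.32 to -0.040. Il7, the stromal ligand of IL-7R, was dim. On rCPS1 arrays Il7 (probe set 17403994) stood at log2 levels of 2.13, 2.31, 1.95 and 1.94, and on rTF arrays at 2.13, 2.07, 1.93 and 2.05. Its groups overlapped. The means, 2.08 ± 0.18 with rCPS1 and 2.05 ± 0.082 with rTF (SD, n = 4 each), differed by 0.037 ± 0.12 (SE) with a 95% confidence interval of -0.23 to 0.30. In limma, the unadjusted p was 0.759. Il4, the ligand of alternative macrophage activation, differed by -0.36 ± 0.26 with an interval of -0.94 to 0.21, and from -0.51 to -0.16 with 1 array left out. Il2 is the T cell growth factor. For Il2 (probe set 17404880) log2 levels were 1.833, 1.487, 1.498 and 1.920 with rCPS1 and 1.831, 1.641, 1.609 and 1.643 with rTF. All 4 rTF arrays lay within the rCPS1 range. Averages of 1.68 ± 0.22 with rCPS1 and 1.68 ± 0.10 with rTF (SD, n = 4 each) gave a difference of 0.0033 ± 0.13 (SE) with a 95% confidence interval of -0.29 to 0.30. Unadjusted, p was 0.98 by limma.

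**Figure D3:**
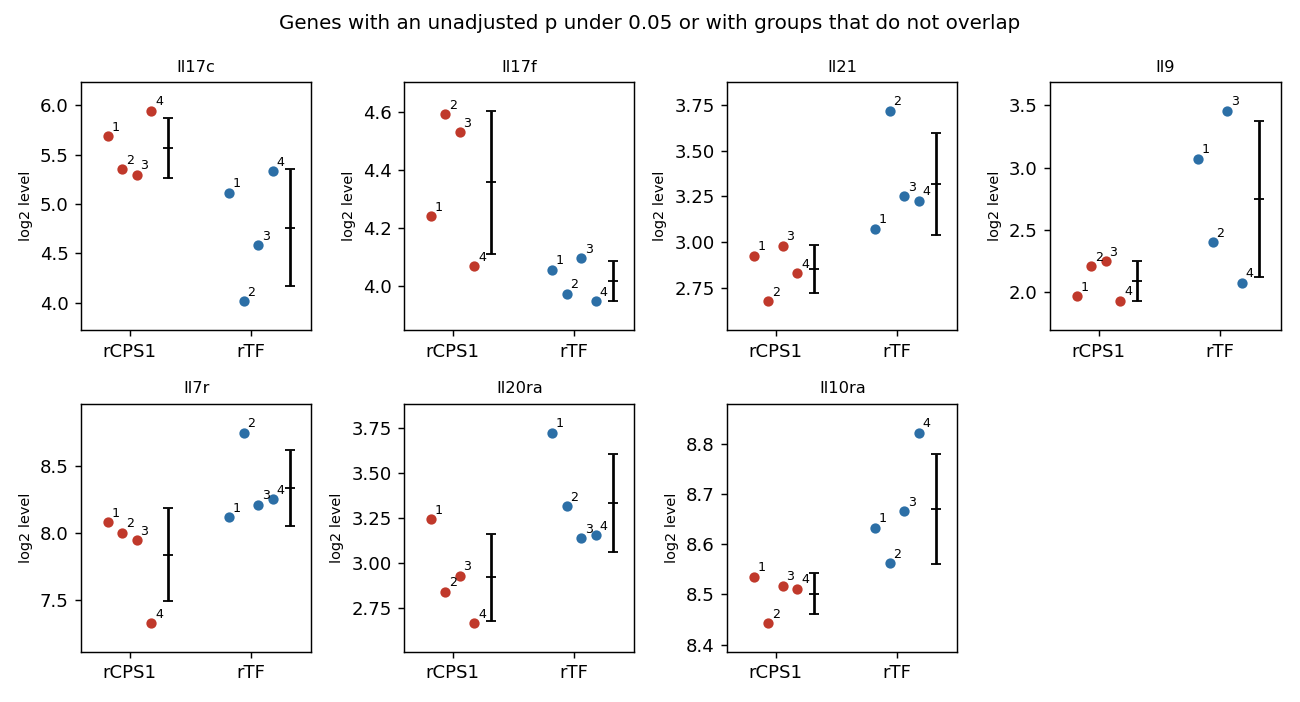
RMA log2 level on each array (vertical axes, scaled per gene) for the 6 genes with an unadjusted p under 0.05 and for Il10ra, rCPS1 left of rTF; numbers are replicates and black bars give mean ± SD of 4 arrays. Il17c and Il17f lie higher with rCPS1, and the other 5 genes lower, with overlap between groups for Il17f, Il17c, Il9 and Il20ra.

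Among the 6 receptor genes of this system, 4 were lower and 2 higher with rCPS1. The median difference was -0.22, and -0.14 without rTF replicate 2. Il7r encodes the alpha chain of the IL-7 receptor, which also pairs with CRLF2 to bind TSLP. Il7r (probe set 17315891) measured 8.08, 8.00, 7.95 and 7.33 on the rCPS1 arrays, against 8.12, 8.75, 8.21 and 8.25 on the rTF arrays (log2 levels, replicates 1 to 4). Each rCPS1 array was below each rTF array, by a margin of 8.08 against 8.12 between the nearest pair. Group means were 7.84 ± 0.35 with rCPS1 and 8.33 ± 0.28 with rTF (SD, n = 4 each), a difference of -0.49 ± 0.20 (SE) with a 95% confidence interval of -0.93 to -0.055. By limma the unadjusted p was 0.0311 and the adjusted p 0.98. The lowest rCPS1 array was replicate 4 and the highest rTF array replicate 2. Without rCPS1 replicate 4 the difference was -0.32 (unadjusted p = 0.083 by limma), and without rTF replicate 2 it was -0.35 (unadjusted p = 0.0892).

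Il2rb, the beta chain shared by IL-2 and IL-15 on NK and T cells, also had its extremes in these arrays. On rCPS1 arrays Il2rb (probe set 17319009) stood at log2 levels of 8.11, 8.05, 8.70 and 7.49, and on rTF arrays at 8.01, 9.19, 8.35 and 8.43. The groups overlapped, with rTF replicate 2 highest and rCPS1 replicate 4 lowest. The means, 8.09 ± 0.49 with rCPS1 and 8.49 ± 0.50 with rTF (SD, n = 4 each), differed by -0.41 ± 0.29 (SE) with a 95% confidence interval of -1.05 to 0.23. The unadjusted limma p was 0.188. Il21r, the IL-21 receptor of B, T and NK cells, differed by -0.30 ± 0.23 and Il12rb2, the signalling chain for IL-12 on T and NK cells, by -0.31 ± 0.24. In rTF replicate 2 these genes stood above the mean of the other 3 rTF arrays by 0.56 for Il7r, 0.93 for Il2rb, 0.69 for Il21r and 0.52 for Il12rb2. Not all receptor genes of these families did so. The remaining common gamma chain receptors stood at -0.62 (Il2ra), -0.017 (Il9r) and 0.31 (Il15ra), and those of the IL-12 family at -0.21 (Il12rb1) and -0.19 (Il23r). Receptor genes of other families also stood above, by 1.79 for Il13ra2, 0.75 for Il17rb (a dim row), 0.53 for Il27ra and 0.52 for Il17rc. Over all 28 receptors the median of this offset was 0.064, with 16 above, so it was not particular to receptors of lymphocytes. The same offset was 1.06 at the median of the 9 T cell markers and 0.94 at the median of the 9 NK cell markers, with all 9 of each above. Without that array the group differences were -0.35 for Il7r, -0.17 for Il2rb, -0.12 for Il21r and -0.18 for Il12rb2, against -0.16 at the median of the T cell markers and -0.20 at that of the NK cell markers. Without rTF replicate 1, which was lowest for Il12rb2, the Il12rb2 difference was -0.51 (unadjusted p = 0.0263 by limma). Across the set, rTF replicate 2 was the highest of the 8 arrays for 10 of 28 receptors (35.7%) and 4 of 24 ligands (16.7%), against 19.8% of all genes. Whether a different content of lymphocytes or other cells had a part in the Il7r value was not tested.

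The alpha chain Il2ra, which gives the IL-2 receptor its high affinity on regulatory and activated T cells, was instead lowest in rTF replicate 2, at 6.29. Its difference was 0.10 ± 0.19, and -0.056 without that array, while that of Il15ra, which presents IL-15, was 0.093 ± 0.14. Il9r, the IL-9 receptor, differed by -0.14 ± 0.16.

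**Figure D4:**
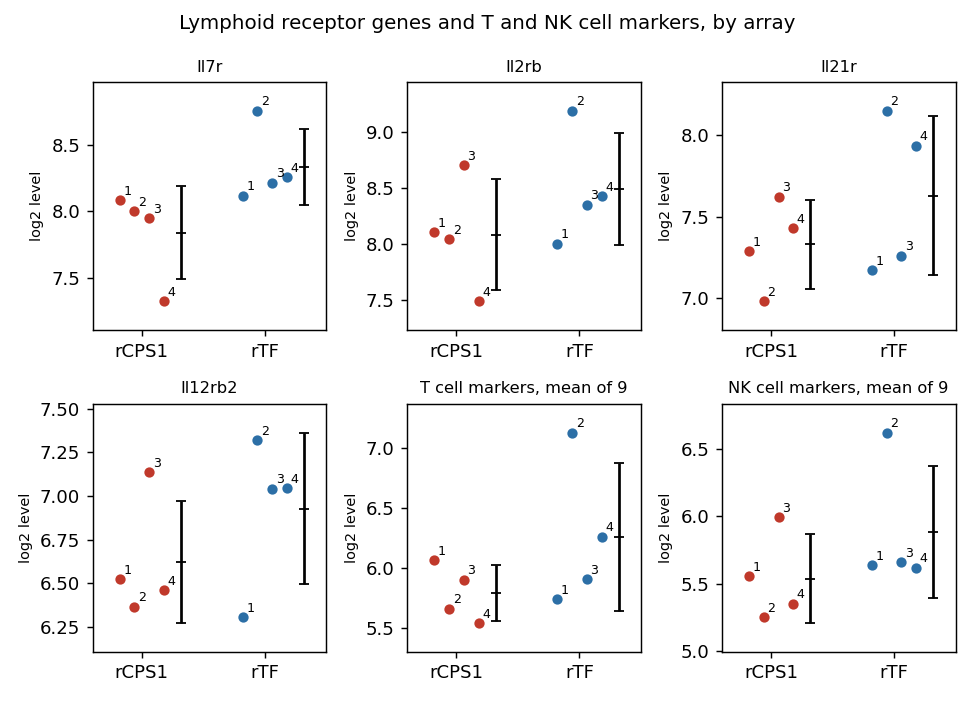
RMA log2 level on each array (vertical axes, scaled per panel) of 4 receptor genes of lymphocytes and of the mean of 9 T cell and 9 NK cell marker genes, rCPS1 left of rTF; numbers are replicates and black bars give mean ± SD of 4 arrays. The rTF replicate 2 array is the highest in all 6 panels. It is not the highest for Il2ra, Il9r, Il15ra, Il12rb1 and Il23r, receptor genes of the same families that are not shown. For Il13ra1, Il13ra2, Il17rb, Il17rc, Il22ra1 and Il27ra, receptor genes of other families that are not shown, it is also the highest.

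The receptor genes Il10ra, Il10rb, Il6ra, Il6st and Il13ra1 had confidence intervals wholly within 0.5 either way on the log2 scale. Their values are of the whole preparation, and which cells they came from was not tested. Il10ra, the binding chain through which IL-10 quiets macrophages, was lower on all rCPS1 arrays. For Il10ra (probe set 17526492) log2 levels were 8.54, 8.44, 8.52 and 8.51 with rCPS1 and 8.63, 8.56, 8.67 and 8.82 with rTF. The groups did not overlap, with the nearest arrays at 8.54 and 8.56. Averages of 8.50 ± 0.04 with rCPS1 and 8.67 ± 0.11 with rTF (SD, n = 4 each) gave a difference of -0.17 ± 0.10 (SE) with a 95% confidence interval of -0.40 to 0.06. This gave an unadjusted p of 0.131 in limma. Its partner Il10rb, shared with IL-22 and interferon lambda, overlapped. Il10rb (probe set 17327054) measured 9.47, 9.76, 9.74 and 9.58 on the rCPS1 arrays, against 9.88, 9.88, 9.54 and 9.63 on the rTF arrays (log2 levels, replicates 1 to 4). The rCPS1 arrays lay within the rTF range except for replicate 1. Group means were 9.64 ± 0.14 with rCPS1 and 9.73 ± 0.17 with rTF (SD, n = 4 each), a difference of -0.096 ± 0.13 (SE) with a 95% confidence interval of -0.38 to 0.18. In limma, the unadjusted p was 0.463.

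Il6st encodes gp130, the signalling chain of the IL-6 family. On rCPS1 arrays Il6st (probe set 17289889) stood at log2 levels of 11.88, 11.89, 11.66 and 11.83, and on rTF arrays at 11.55, 11.85, 11.85 and 11.83. All arrays but rTF replicate 1 lay between 11.66 and 11.89. The means, 11.81 ± 0.10 with rCPS1 and 11.77 ± 0.15 with rTF (SD, n = 4 each), differed by 0.041 ± 0.12 (SE) with a 95% confidence interval of -0.22 to 0.30. Unadjusted, p was 0.731 by limma. Il6ra, the binding chain for IL-6, was slightly lower with rCPS1. For Il6ra (probe set 17407138) log2 levels were 8.89, 8.85, 8.68 and 8.78 with rCPS1 and 9.09, 8.83, 9.01 and 8.85 with rTF. The groups overlapped, and the 2 highest arrays were rTF replicates 1 and 3. Averages of 8.80 ± 0.096 with rCPS1 and 8.94 ± 0.12 with rTF (SD, n = 4 each) gave a difference of -0.15 ± 0.11 (SE) with a 95% confidence interval of -0.39 to 0.10. Limma returned an unadjusted p of 0.218. Il27ra, which pairs with gp130 for IL-27, differed by -0.11 ± 0.19, and Il31ra, a relative of gp130, by -0.01 ± 0.19.

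The groups also overlapped for Il27 and Il11, ligands of this branch, and for Il31, the ligand of the gp130 relative Il31ra. Il27, the subunit that joins EBI3 to form a cytokine of activated myeloid cells, was measured at 5.88 or above on all arrays. Il27 (probe set 17496338) measured 5.93, 5.97, 6.21 and 6.61 on the rCPS1 arrays, against 6.36, 5.92, 5.88 and 6.08 on the rTF arrays (log2 levels, replicates 1 to 4). The groups overlapped, with rCPS1 replicate 4 highest. Group means were 6.18 ± 0.31 with rCPS1 and 6.06 ± 0.22 with rTF (SD, n = 4 each), a difference of 0.12 ± 0.17 (SE) with a 95% confidence interval of -0.27 to 0.51. The unadjusted limma p was 0.507. Ebi3 itself differed by 0.0022 ± 0.19. Il11, a stromal cytokine of the gp130 family, was dim. On rCPS1 arrays Il11 (probe set 17485924) stood at log2 levels of 2.94, 4.10, 3.18 and 3.24, and on rTF arrays at 3.36, 2.71, 3.13 and 3.04. The highest array was rCPS1 replicate 2. The means, 3.37 ± 0.51 with rCPS1 and 3.06 ± 0.27 with rTF (SD, n = 4 each), differed by 0.31 ± 0.24 (SE) with a 95% confidence interval of -0.23 to 0.85. This gave an unadjusted p of 0.235 in limma. Without rCPS1 replicate 2 the difference was 0.060. Il31 differed by 0.16 ± 0.18.

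Il13ra1, which pairs with IL-4RA to sense IL-4 and IL-13, overlapped between the groups. For Il13ra1 (probe set 17534051) log2 levels were 9.76, 9.45, 9.45 and 9.62 with rCPS1 and 9.19, 9.78, 9.42 and 9.51 with rTF. The lowest and the highest array were both rTF arrays. Averages of 9.57 ± 0.15 with rCPS1 and 9.48 ± 0.24 with rTF (SD, n = 4 each) gave a difference of 0.092 ± 0.14 (SE) with a 95% confidence interval of -0.23 to 0.41. In limma, the unadjusted p was 0.539. Il13ra2, a decoy receptor for IL-13, varied more between arrays than any other member: it ran from 5.54 to 7.10 on rCPS1 arrays and from 5.55 to 7.87 on rTF arrays, again with rTF replicate 2 highest. Its difference was -0.16 ± 0.48, and without rTF replicate 2 it was 0.29. Il13 differed by -0.11 ± 0.16.

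Among receptors of the IL-10 family on epithelium, Il20ra, a chain for IL-19, IL-20 and IL-24, was dim and lower with rCPS1. Il20ra (probe set 17231881) measured 3.25, 2.84, 2.93 and 2.67 on the rCPS1 arrays, against 3.73, 3.32, 3.14 and 3.15 on the rTF arrays (log2 levels, replicates 1 to 4). The groups overlapped through rCPS1 replicate 1. Group means were 2.92 ± 0.24 with rCPS1 and 3.33 ± 0.27 with rTF (SD, n = 4 each), a difference of -0.41 ± 0.17 (SE) with a 95% confidence interval of -0.79 to -0.037. By limma the unadjusted p was 0.0346 and the adjusted p 0.98. Without rTF replicate 1 the difference was -0.28 (unadjusted p = 0.0953 by limma), and the p was also above 0.05 without rCPS1 replicate 2 (0.0744), 3 (0.0595) or 4 (0.0968) or rTF replicate 2 (0.0565), and with array weights (0.0637). Its partner Il20rb differed by 0.092 ± 0.19, Il22ra1, by which hepatocytes sense IL-22, by -0.26 ± 0.16, and Il22ra2, a soluble decoy for IL-22, by -0.083 ± 0.13. The ligands Il19, Il20, Il22 and Il24 were all dim, with differences between -0.20 and 0.18. Il20, made by myeloid cells and keratinocytes, is one of them. On rCPS1 arrays Il20 (probe set 17226720) stood at log2 levels of 1.76, 2.22, 2.22 and 2.16, and on rTF arrays at 2.12, 1.95, 1.71 and 2.01. The lowest rCPS1 array, replicate 1, lay apart from the other 3. The means, 2.09 ± 0.22 with rCPS1 and 1.95 ± 0.17 with rTF (SD, n = 4 each), differed by 0.14 ± 0.14 (SE) with a 95% confidence interval of -0.18 to 0.46. Limma returned an unadjusted p of 0.348.

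The receptors of the common beta chain and the IL-12 family all had intervals that include 0. Il3ra is the IL-3 binding chain, found on basophils among other cells. For Il3ra (probe set 17297211) log2 levels were 6.56, 6.51, 6.18 and 6.49 with rCPS1 and 5.84, 6.40, 6.54 and 6.41 with rTF. The groups overlapped, with rTF replicate 1 lowest. Averages of 6.44 ± 0.17 with rCPS1 and 6.30 ± 0.31 with rTF (SD, n = 4 each) gave a difference of 0.14 ± 0.17 (SE) with a 95% confidence interval of -0.23 to 0.51. The unadjusted limma p was 0.425. Il5ra, the eosinophil chain, differed by -0.025 ± 0.15, and the ligands Il3 and Il5 by -0.072 ± 0.13 and 0.13 ± 0.20. Il12rb1, shared by IL-12 and IL-23, differed by 0.16 ± 0.15 and Il23r by -0.0092 ± 0.15.

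Of the ligands outside these families, Il16 is a chemoattractant for CD4+ cells. Il16 (probe set 17492905) measured 6.28, 5.58, 5.61 and 6.14 on the rCPS1 arrays, against 6.01, 6.63, 5.80 and 6.10 on the rTF arrays (log2 levels, replicates 1 to 4). The groups overlapped, with rTF replicate 2 highest. Group means were 5.90 ± 0.36 with rCPS1 and 6.13 ± 0.35 with rTF (SD, n = 4 each), a difference of -0.23 ± 0.22 (SE) with a 95% confidence interval of -0.71 to 0.26. This gave an unadjusted p of 0.318 in limma. Without rTF replicate 2 the difference was -0.063. Il34, the second ligand of the macrophage growth factor receptor CSF1R, was dim. On rCPS1 arrays Il34 (probe set 17512895) stood at log2 levels of 2.60, 2.80, 2.41 and 2.41, and on rTF arrays at 2.54, 2.29, 2.23 and 2.36. The rCPS1 arrays reached higher, but the groups overlapped. The means, 2.56 ± 0.19 with rCPS1 and 2.36 ± 0.13 with rTF (SD, n = 4 each), differed by 0.20 ± 0.13 (SE) with a 95% confidence interval of -0.084 to 0.49. In limma, the unadjusted p was 0.146. Csf1r differed by -0.012 ± 0.16.

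Downstream of these receptors, of 25 genes listed for JAK kinases, STAT factors and their inhibitors, 23 were measured, 13 were higher and 10 lower with rCPS1, and 0 had an unadjusted p under 0.05 by limma or an adjusted p under 0.05, against 4.67% of all genes at the unadjusted p. A list of this size would hold few such genes at that share, so the count says little about it. Their median difference was 0.017, and the range was -0.18 (Stat5a) to 0.25 (Stat2). Stat3, the main factor behind IL-6 and IL-10, differed by 0.13 ± 0.14, Stat6, that of IL-4 and IL-13, by -0.019 ± 0.096, and Socs3, a feedback inhibitor induced by STAT3, by 0.014 ± 0.20. Among 12 partner chains and related ligands 0 had an unadjusted p under 0.05, with 4 higher and 8 lower and a median of -0.048. Osm (oncostatin M), the one furthest from 0, differed by -0.36 ± 0.23. The genes of these 2 lists that are named here, and Ebi3, were chosen after their values were seen.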

How the data were processed

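RNA from hepatic macrophage preparations was hybridised to Affymetrix arrays, 4 for rCPS1 and 4 for rTF, from 400 ng of RNA per array per the labels' protocols. The deposited values are log2 levels. The submitters' processing notes name RMA and limma for the authors' work; versions, array annotation and the isolation procedure are not given in the sources used here. RMA normalizes the arrays to each other and compresses dim rows. With 4 arrays a group, precision is limited by their number. Of 41345 rows, 23521 carried 1 symbol, 1814 several and 16010 none; per gene the row of highest mean was kept (1082 genes had several rows, 0 of them members), giving 22180 genes. All 52 members matched RefSeq. Groups were compared with limma 3.58.1 (lmFit and eBayes, two-sided, R 4.3.3) on all genes, with Benjamini-Hochberg adjustment over all of them; the code was tested on simulated data.

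The members and lists were chosen with earlier results of these data known. Values on each array are given for members with an unadjusted p under 0.05 or groups that do not overlap, the 4 ligands and 8 receptors of highest row mean, a list by role, and members with 1 array far from its group. Alternatives were a filter on dim rows, trended and robust variance, the array weights of limma and a replicate block. Others were the mean of rows, quantile normalization and leaving out each array. The package statmod was at version 1.5.0. Same-numbered arrays did not deviate together (r from -0.124 to 0.0251, 0 of 4 best with its own number), so the numbers were not taken as pairs. No 2 arrays were identical.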

Additional observations from a re-analysis of the deposited data

Results flagged for a closer look

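In 4 of 104 groups of 4 arrays, 1 array lay further from the others than Dixon's 95% limit for the gap of a single array allows. Chance flags about 1 in 20 groups, or 5.2 here. Il3ra was at 6.181 on rCPS1 replicate 3, against 6.495 to 6.56 on the other rCPS1 arrays. Il20 was at 1.758 on rCPS1 replicate 1, against 2.157 to 2.222 on the others of its group. Il6st was at 11.55 on rTF replicate 1, against 11.83 to 11.85 on the other rTF arrays. Il2 was at 1.831 on rTF replicate 1, against 1.609 to 1.643 on the others. None of the 4 was rTF replicate 2, the array that stood apart on the first principal component.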

How the results depend on the processing

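No member passed an adjusted p of 0.05 by limma in any setting, and the smallest adjusted p was 0.716 (Il21, without rTF replicate 1). Leaving out dim rows reduced the members at an unadjusted p under 0.05 to 3 of 28 (10.7%), and the genes to 609 of 12384 (4.92%), since fewer genes were tested. With 1 array left out the member count ran from 3 to 6. The ligand median ran from -0.023 to 0.10 and the receptor median from -0.084 to -0.012. With the replicate block, 6 members and 997 genes had an unadjusted p under 0.05, and 0 an adjusted one. Of 704 member values in other settings 661 kept their direction. An unadjusted p under 0.05 was lost 18 times (15 with 1 array left out) and gained 3 times (2 with 1 array left out): it was lost with quantile normalization for Il17f (0.0635) and with array weights for Il9 (0.091) and Il20ra (0.0637), and gained with array weights for Il17a (0.0271). Signs turned for Il20rb (-0.020) and Il2ra (-0.063) with array weights, and for Il17rc (-0.0080) and Il23r (0.018) with quantile normalization; the cause was not tested. With 1 array left out, 30 members kept their sign, and the sign turned at least once for the other 22, whose log2 differences ran as follows: Il13 -0.24 to 0.0088, Il13ra1 -0.0028 to 0.19, Il13ra2 -0.48 to 0.29, Il15ra -0.015 to 0.17, Il17ra -0.16 to 0.0037, Il17rb -0.29 to 0.055, Il17rc -0.094 to 0.15, Il17rd -0.0060 to 0.14, Il2 -0.075 to 0.069, Il20rb -0.086 to 0.20, Il22ra2 -0.14 to 0.017, Il23r -0.13 to 0.064, Il27 -0.023 to 0.22, Il27ra -0.22 to 0.025, Il2ra -0.056 to 0.28, Il3 -0.14 to 0.0029, Il31ra -0.17 to 0.10, Il3ra -0.014 to 0.22, Il5 -0.032 to 0.26, Il5ra -0.13 to 0.080, Il6st -0.032 to 0.091, Il7 -0.039 to 0.084. Dim rows, most of them ligands, limit what these arrays can resolve.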

Other observations

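Of 10 pairs of members that neighbour each other on a chromosome, 3 had log2 differences (rCPS1 minus rTF) whose signs held with each array left out in turn, 2 of them opposite and 1 the same. On chromosome 1, Il17f was at 0.34 and its neighbour Il17a at -0.30, and Il20 was at 0.14 and its neighbour Il24 at -0.20. Il20 and its other neighbour Il19, at 0.17, had the same sign. In the remaining pairs the sign of at least 1 gene turned when an array was left out. Among all 52 members, 30 kept their sign in the same way. Over the 10 pairs, 6 had the same sign and 4 opposite signs. Il17a, Il19, Il20 and Il24 are dim rows. Of the genes in the 3 pairs, only Il17f had an unadjusted p under 0.05 by limma. These pairs were not tested against each other.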
